A study of Mus musculus with 11 samples.

Results

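The receptors described here are the protein-coding genes of mouse embryonic stem cells (mESCs) and embryonic fibroblasts (MEFs) that carry a GPR number or an adhesion G-protein coupled receptor (Adgr) symbol, taken by their gene symbols. There were 97 such genes among the 34570 genes listed for either cell type, 87 of them among the 31518 genes of the mESC table and 95 among the 29450 genes of the MEF table. Of these, 25 in mESCs and 27 in MEFs were adhesion receptors, and the others were GPR genes. The choice used the symbols only and no measured value.

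G-protein coupled receptors cross the plasma membrane several times and pass a signal from outside the cell to heterotrimeric G proteins, which act on adenylyl cyclases, phospholipases and ion channels. Many GPR genes are named by number because their ligand was unknown when they were cloned, and several are still orphans. Adhesion receptors carry a long extracellular part that binds matrix or neighbouring cells, and most cut themselves next to the membrane, so that a tethered peptide can activate the receptor.

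The study asked what the loss of ATXN7L3, the adaptor of the histone H2B deubiquitinases of the SAGA coactivator, does to transcription. Poly(A) RNA of 2 Atxn7l3+/+ (WT) and 3 Atxn7l3-/- mESC libraries and of 3 WT and 3 Atxn7l3-/- MEF libraries was sequenced, all of strain DBA/2 x C57BL/6. mESCs came from single blastocysts and grew with LIF, 15% foetal calf serum, PD0325901 at 1 uM and CH99021 at 3 uM after feeders had been removed, whereas MEFs came from E10.5 embryos without head and gut and grew in 10% serum, so that cell type, medium and time in culture cannot be told apart. The allele was constitutive, the authors left out 1 WT mESC dataset, and the labels do not say which libraries share a litter, so that p-values measure the spread between these libraries.

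The libraries held 34515342 to 49602605 counts. Atxn7l3 itself stood at 222 and 223 CPM (counts scaled by TMM to a common library size within each cell type) in WT mESCs and at 3.91, 1.79 and 0.976 CPM in Atxn7l3-/- mESCs. In MEFs it stood at 79.7, 104 and 92.9 CPM against 49.2, 49.5 and 67.3 CPM, which did not pass the test (log2 fold change -0.74, adjusted p = 0.0715), and the gene counts do not tell which exons these reads came from. The paper reports that ATXN7L3 protein could not be detected in the mutant cells of either type. The summed level of 8 pluripotency genes was 4957 to 5951 CPM in all 5 mESC libraries, and that of 10 fibroblast genes was 6950 to 38578 CPM in the MEF libraries. In cultures such as these, fewer cells of a type and less RNA per cell cannot be told apart.

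Most receptors were low. In mESCs 16 of 87 receptors and in MEFs 17 of 95 had at most 3 counts in every library, and 42 and 47 had a median above 10 normalized reads per kb of transcript, the level the study took as expressed. The filter on low counts left 57 receptors to test in mESCs (19 adhesion and 38 GPR) and 59 in MEFs (20 and 39). This was 65.5% and 62.1% of those listed, against 80.3% and 77.7% of all protein-coding genes.

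The highest levels per kb were shared by both cell types. Gpr107, a receptor of the Golgi network, had a median over the libraries of both genotypes of 9366 normalized reads per kb in mESCs and 7729 in MEFs. Adgra3, an adhesion receptor linked to planar cell polarity, had 6786 and 8500, and Adgre5 (CD97), which binds the complement regulator CD55, had 3236 and 1436. The antisense gene Ddx39 shares 895 exonic bases with Adgre5 and was at 86.1 to 218 CPM in mESCs and 51.8 to 93.8 CPM in MEFs, against 124 to 221 and 42.8 to 126 CPM for Adgre5, and whether strand was used in counting is not given in the sources used here. Gpr89, which encodes the Golgi pH regulator, had 1253 and 1377. Among the 6 highest in mESCs were also the orphan Gpr19 (1534) and Gpr108 (723), and among those in MEFs Adgra2 (1809), the Wnt7 co-receptor. Gpr39, a zinc-sensing receptor, had the fifth place of this order in MEFs through the mutant alone, with a median of 95.5 per kb in WT and 2761 in Atxn7l3-/- libraries. These levels use the median length of a gene's transcripts, which the authors took as 543 bases for Adgra3 and 683 for Gpr107. When the longest coding transcript was used instead, an alternative chosen after seeing the data, Adgre5 (1935), Gpr107 (1043) and Adgra3 (823) led in mESCs, and in WT MEFs alone Adgra2 (1575), Adgra3 (1110) and Adgrl1 (898). In Atxn7l3-/- MEFs alone Gpr39 (1959), Gpr176 (1122) and Gpr180 (984) led by that length.

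**Figure D1:**
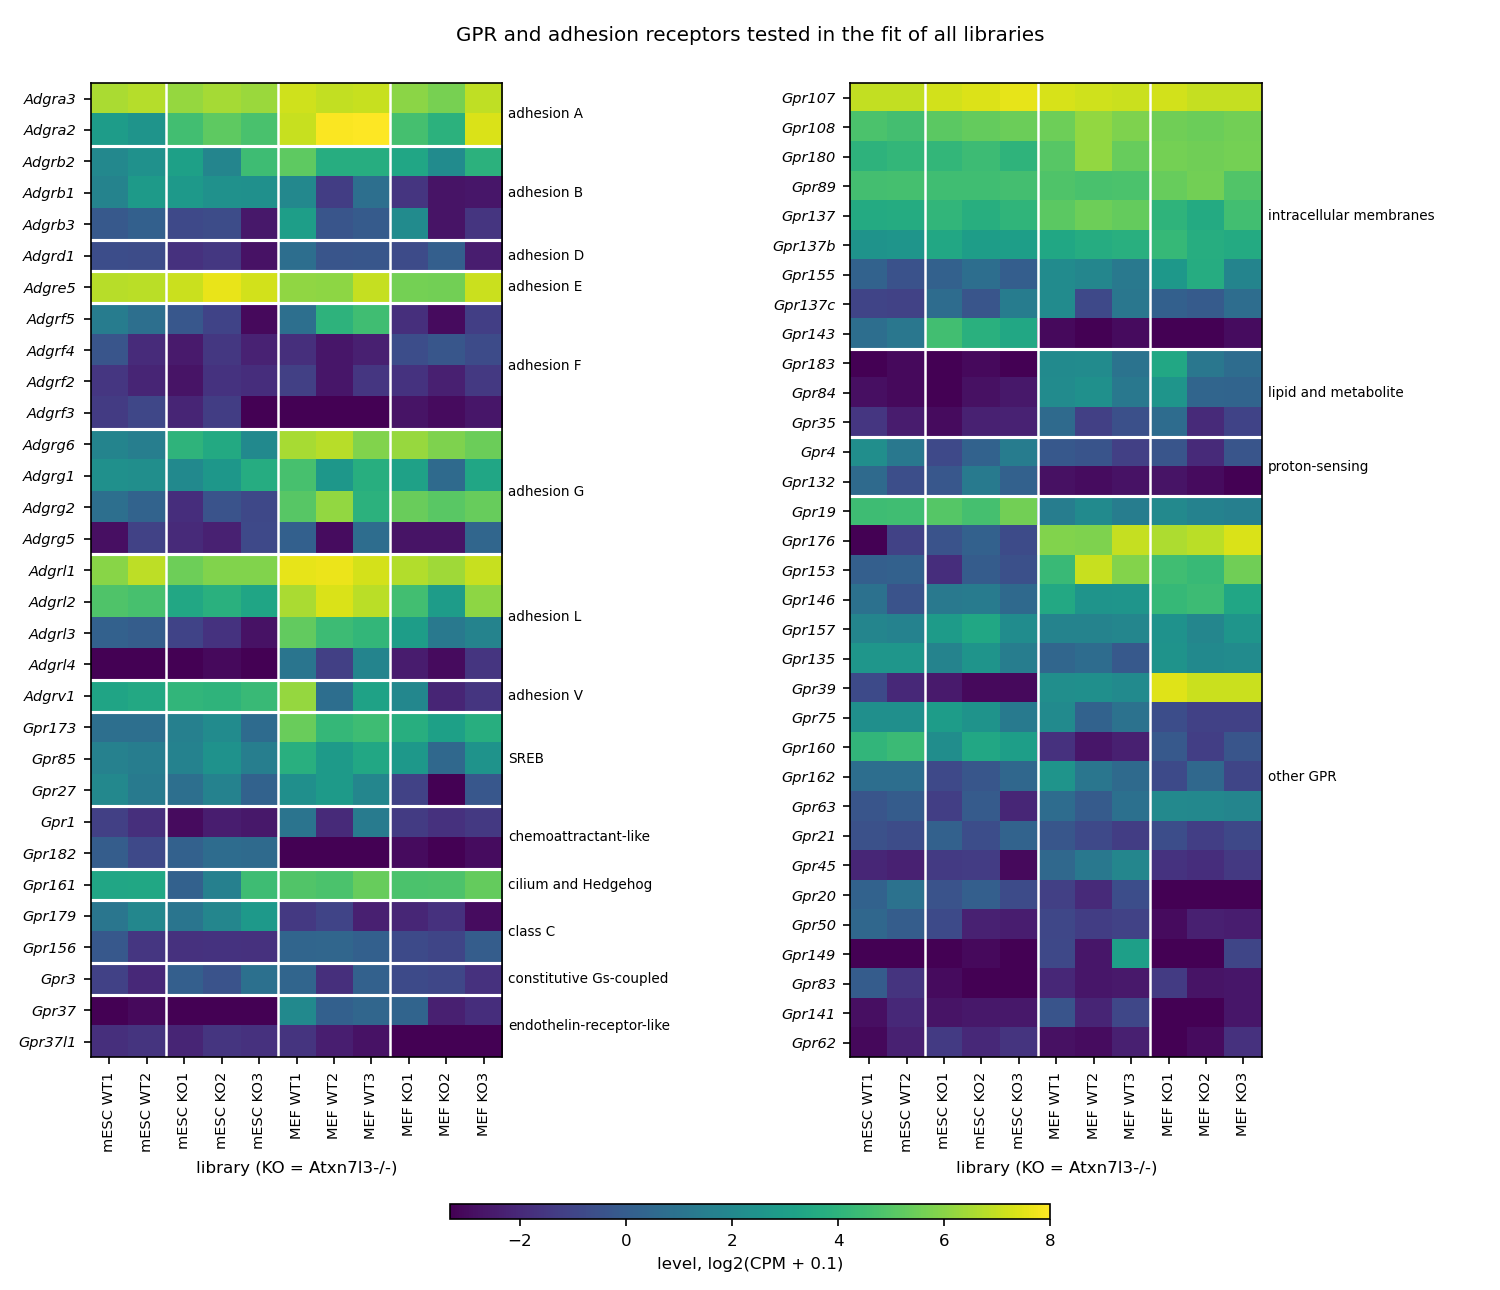
Level of 64 receptors tested in the fit of all 11 libraries, as log2(CPM + 0.1), with a column per library and a row per receptor, grouped by role and ordered by mean level within a group. White lines part the groups of libraries and of roles. Gpr107 and Adgra3 are bright in every column, and Gpr39 is brightest in the 3 Atxn7l3-/- MEF columns.

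In Atxn7l3-/- mESCs, Gpr143 and Adgra2 rose and Adgrl2 and Gpr83 fell. These were 2 of 57 tested receptors up, where 3.08% of all 17800 tested genes were up, and 2 down, where 3.88% were down. Tests were quasi-likelihood tests in edgeR, adjusted by Benjamini-Hochberg over all tested genes, and passing means an adjusted p of 0.05 or less. The median log2 fold change was 0.20 over the receptors tested and 0.04 over all genes. A change of more than 2-fold was fitted for 38.6% of the receptors and 26.3% of all genes, while an unadjusted p below 0.05 was found for 31.6% and 29.8%. With the study's added demands of a 2-fold change and a median above 10 per kb, 2 receptors were up (2.76% of all genes) and 1 was down (1.92%), since Gpr83 was too low. Without WT 1, WT 2 or Atxn7l3-/- 1 no receptor passed in mESCs in either direction. The share of all genes in those fits was not worked out.

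Gpr143 (ENSMUSG00000025333, mm10 chrX:152781921-152808646, plus strand), the receptor of melanosomes and other inner organelles that is mutated in ocular albinism, was at 1.80 and 2.33 CPM in WT mESCs and at 27.7, 15.9 and 12.8 CPM in Atxn7l3-/- mESCs. The groups did not overlap, and the mutant libraries spread more widely than the WT ones. The mean rose from 2.07 ± 0.373 CPM (SD, n = 2) to 18.8 ± 7.88 CPM (SD, n = 3), which is 9.08-fold (log2 fold change 3.18, SE 0.46, adjusted p = 0.0219). Gpr143 lies on the X chromosome, and the mESC libraries differed in sex-linked genes. The Y-linked Ddx3y was at 90.6 and 193 CPM in WT and at 3.46, 0.882 and 225 CPM in Atxn7l3-/- libraries, and Xist, which marks the inactive X, was at 11 and 25.3 against 58.3, 51.0 and 2.80 CPM. Of the 5 sex-linked genes 1 passed, the Y-linked Kdm5d, which fell from 6.66 and 25.1 to 0.872, 0.0238 and 0.686 CPM (adjusted p = 0.0387). The part of sex in the Gpr143 result was not tested. Gpr143 passed in 2 of 5 fits that each left out a library, and without WT 1, WT 2 or Atxn7l3-/- 1 it did not (adjusted p up to 0.161).

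Adgra2 (ENSMUSG00000031486, chr8:27085583-27123436, plus strand) works with the membrane protein RECK as a co-receptor for Wnt7a and Wnt7b during brain angiogenesis. Its level was 8.42 and 6.20 CPM in WT mESCs and 27.4, 40.0 and 31.3 CPM in Atxn7l3-/- mESCs, with every mutant library above both WT libraries. The mean rose from 7.31 ± 1.57 to 32.9 ± 6.41 CPM, or 4.5-fold (log2 fold change 2.17, SE 0.31, adjusted p = 0.0211). The 10 fibroblast genes summed to 29.2 and 109 CPM in WT and to 319, 438 and 322 CPM in mutant mESCs (1 of 9 tested up), and the part of such cells in the result was not tested. Adgra2 shares 73 exonic bases with the antisense gene Brf2, whose level did not pass (adjusted p = 0.946). In fits that each left out a library it passed in 2 of 5, not without WT 1, WT 2 or Atxn7l3-/- 1 (adjusted p up to 0.157), and in 1 fit of all 11 libraries its adjusted p was 0.180.

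Adgrl2 (ENSMUSG00000028184, chr3:148815583-148990555, minus strand) is a latrophilin, a receptor that binds teneurins and FLRT proteins of neighbouring cells, chiefly known at synapses. Its level was 33.0 and 28.7 CPM in WT and 12.8, 15.8 and 11.7 CPM in Atxn7l3-/- mESCs, so that the groups did not overlap. The mean fell 2.29-fold, from 30.8 ± 3.02 to 13.4 ± 2.15 CPM (log2 fold change -1.20, SE 0.26, adjusted p = 0.0400). It passed without Atxn7l3-/- 2 only, with an adjusted p up to 0.254 without another library and of 0.285 in 1 fit of all 11 libraries. The other latrophilins tested in mESCs also had fold changes below 0, with -0.68 for Adgrl1 (adjusted p = 0.139) and -2.13 for Adgrl3 (adjusted p = 0.109), neither past the threshold. Their partners that fell in the same cells were Flrt3 (-2.98), Tenm3 (-1.49) and Tenm4 (-1.17), while the other listed partners, Tenm1, Tenm2, Flrt1 and Flrt2, were tested and did not pass.

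Gpr83 (ENSMUSG00000031932, chr9:14860210-14870789, plus strand), a receptor of brain and regulatory T cells, had 46 and 11 counts in WT and 1, 0 and 0 counts in Atxn7l3-/- mESCs. Its scaled level in WT was 61.7 times that in the mutant, with a 95% interval of 12.3 to 2856 that covers counting error only. It passed the test (adjusted p = 0.0332), but stood far below the level the study took as expressed. It passed in 1 of the 4 fits without a library that still tested it, and without WT 2, Atxn7l3-/- 1 or Atxn7l3-/- 2 the adjusted p rose to as much as 0.142.

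Among the receptors that did not pass in mESCs, Gpr161, a receptor of the primary cilium that restrains Hedgehog signalling, separated the mutant libraries. It was at 11.6 and 11.5 CPM in WT and at 1.23, 3.31 and 25.9 CPM in Atxn7l3-/- libraries, lower than WT in libraries 1 and 2 and higher in library 3 (log2 fold change -0.19, SE 1.04, adjusted p = 0.923). The Y-linked Ddx3y parted the same mutant libraries (3.46, 0.882 and 225 CPM), and the part of sex in the levels of Gpr161 and Adgrg6 was not tested. Adgrg6, which Schwann cells need to myelinate, was at 3.82 and 3.06 CPM against 19.0, 12.8 and 4.67 CPM, without overlap (log2 fold change 1.82, adjusted p = 0.0967). Gpr160, an orphan receptor, was at 19.4 and 23.0 CPM against 5.29, 12 and 9.5 CPM, again without overlap (-1.25, adjusted p = 0.0834).

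By role, the F group of adhesion receptors (4 tested) and the latrophilins (3 tested) had all fold changes below 0 in mESCs, with medians of -1.33 and -1.20, and only Adgrl2 passed. Receptors of inner membranes such as Gpr107, Gpr108 and Gpr137 had 1 of 9 below 0 and a median of 0.51, and only Gpr143 passed. Of the GPR genes without a named role, 9 of 17 were below 0 (median -0.57).

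**Figure D2:**
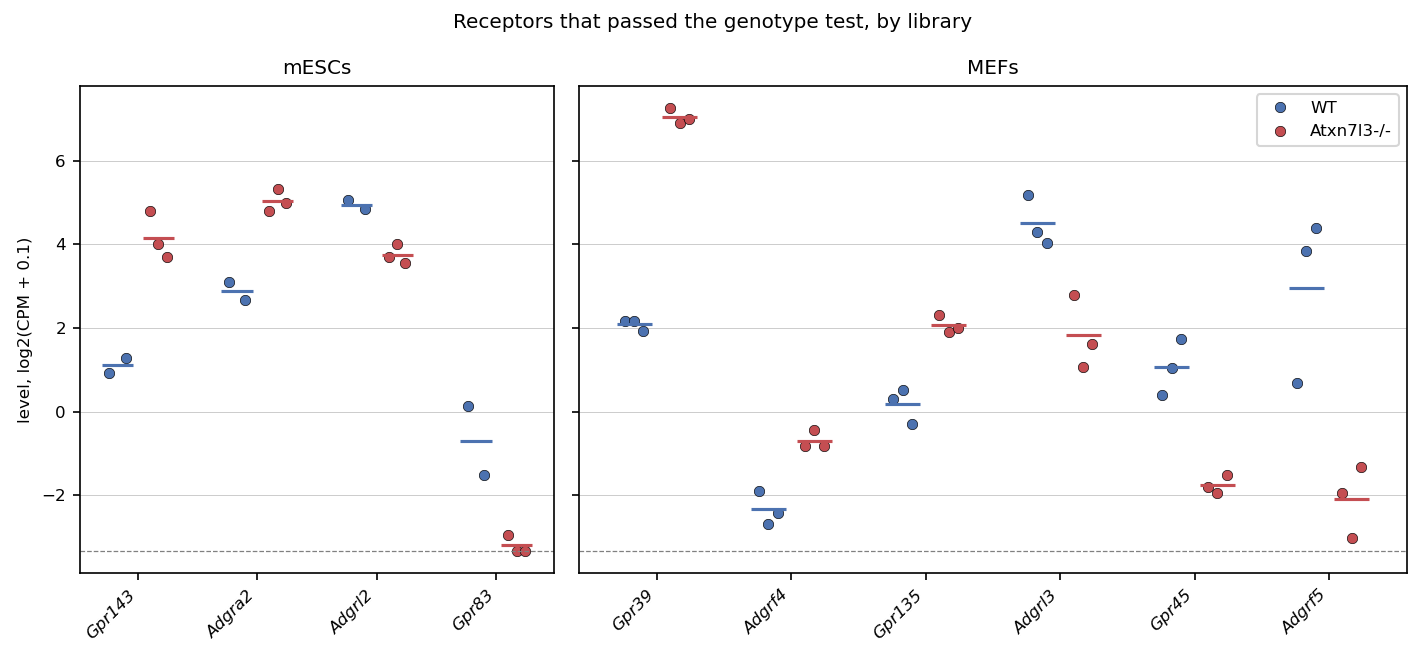
Level of receptors that passed the genotype test, as log2(CPM + 0.1), in mESCs (left, 4 of 4 receptors) and MEFs (right, 6 of 7 receptors). A point is a library, a bar is the group mean on this scale, and the dashed line marks 0 CPM. WT and Atxn7l3-/- points do not overlap for any receptor shown, which choosing receptors by a passed test on the same libraries favours. Gpr39 in MEFs runs from 3.73 to 4.41 CPM in WT and from 120 to 152 CPM in the mutant.

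In Atxn7l3-/- MEFs, receptors such as Gpr39, Gpr135 and Adgrf4 rose and Adgrf5, Gpr45 and Adgrl3 fell. Of 59 tested receptors 4 were up, where 5.01% of all 15958 tested genes were up, and 3 were down, where 4.39% were down. Fitted fold changes were below 0 for 42 of the 59, with a median of -0.77 against -0.06 over all genes, and exceeded 2-fold for 57.6% against 31.5%. An unadjusted p below 0.05 was found for 39.0% of the receptors and 32.4% of all genes. By the study's selection 3 were up (4.34% of all genes) and 3 down (3.26%), with Adgrf4 too low to count. Without 1 library at a time, 1 to 3 receptors were up and 0 to 7 down, with 0 down without WT 3 or Atxn7l3-/- 2 and 7 down without Atxn7l3-/- 3. The shares of all genes in these fits were not worked out. MEF libraries of the same number deviated together, and a fit with the number as a block called 4 receptors up and 10 down, where 5.50% and 8.49% of all genes were called.

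Gpr39 (ENSMUSG00000026343, chr1:125676995-125873862, plus strand), which responds to extracellular zinc and couples to Gq, was at 4.41, 4.38 and 3.73 CPM in WT MEFs. In Atxn7l3-/- MEFs it was at 152, 120 and 127 CPM, so that each mutant library stood far above each WT library. The mean rose 31.9-fold, from 4.17 ± 0.385 to 133 ± 17.2 CPM (SD, n = 3 each; log2 fold change 4.99, SE 0.22, adjusted p = 0.000852). It passed in 9 of 9 alternative fits and in 6 of 6 fits that left out a library, with adjusted p up to 0.0160. The antisense gene Lypd1 shares 1202 exonic bases with Gpr39 and was at 2.48, 4.21 and 1.42 CPM in WT and 1.15, 0.411 and 0.467 CPM in mutant MEFs, far below Gpr39 in the mutant but close to it in WT. Mesothelial markers stood apart in the same libraries, since 7 such genes summed to 17.9, 43.9 and 33.6 CPM in WT and to 7868, 6666 and 5609 CPM in Atxn7l3-/- MEFs, with 6 of 7 up. Their part in the Gpr39 result was not tested.

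Gpr135 (ENSMUSG00000043398, chr12:72067976-72071125, minus strand), an orphan receptor, was at 1.13, 1.34 and 0.720 CPM in WT and at 4.85, 3.63 and 3.90 CPM in Atxn7l3-/- MEFs. Without overlap, the mean rose 3.89-fold, from 1.06 ± 0.315 to 4.12 ± 0.640 CPM (log2 fold change 1.96, SE 0.43, adjusted p = 0.0415). Adgrf4 (ENSMUSG00000023918, chr17:42656891-42692284, minus strand), an adhesion receptor of the F group with no settled ligand, had 9, 2 and 4 counts in WT and 20, 28 and 17 counts in Atxn7l3-/- MEFs. The groups did not overlap here either, and the mean was 5.02-fold higher (log2 fold change 2.26, SE 0.54, adjusted p = 0.0489). Both calls lay close to the threshold. Neither passed when any of the 6 libraries was left out, with adjusted p up to 0.130 for Gpr135 and 0.160 for Adgrf4, and with the block the adjusted p was 0.0442 and 0.0637.

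Gpr45 (ENSMUSG00000041907, chr1:42952872-43035456, plus strand), an orphan receptor of the nervous system, was at 1.22, 1.95 and 3.21 CPM in WT and at 0.185, 0.160 and 0.247 CPM in Atxn7l3-/- MEFs. The mutant libraries were all below the WT libraries and close to each other. The mean fell 10.8-fold, from 2.13 ± 1.00 to 0.197 ± 0.0451 CPM (log2 fold change -3.42, SE 0.56, adjusted p = 0.0217), and the call was lost without WT 3, Atxn7l3-/- 1 or Atxn7l3-/- 2 (adjusted p up to 0.0870).

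Adgrl3 (ENSMUSG00000037605, chr5:81020138-81825133, plus strand), the latrophilin linked to attention disorders, was at 35.9, 19.6 and 16.1 CPM in WT and at 6.83, 2.01 and 2.94 CPM in Atxn7l3-/- MEFs. The groups did not overlap, although each spread more than 2-fold. The mean fell 6.08-fold, from 23.9 ± 10.6 to 3.93 ± 2.56 CPM (log2 fold change -2.60, SE 0.57, adjusted p = 0.0411). It passed without Atxn7l3-/- 1 only among fits that left out a library (adjusted p up to 0.112 without another), and had an adjusted p of 0.0170 with the block.

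Adgrf5 (ENSMUSG00000056492, chr17:43360451-43459557, plus strand), which keeps lung surfactant in balance and is made by endothelium and alveolar cells, was at 1.5, 14.2 and 20.7 CPM in WT and at 0.162, 0.0228 and 0.302 CPM in Atxn7l3-/- MEFs. WT library 1 lay far below the other WT libraries but still above every mutant one. The mean fell 74.8-fold (log2 fold change -6.22, SE 1.27, adjusted p = 0.0362). The 9 endothelial markers summed to 92.2, 38.5 and 57.0 CPM in WT and to 24.2, 15.3 and 11.7 CPM in mutant MEFs, with 1 of 8 tested down. That was Eng, which fell from 18.7, 24.7 and 37.3 to 1.82, 0.867 and 1.70 CPM (adjusted p = 0.00922), while Kdr was at 69.6, 3.32 and 14.1 against 8.15, 1.21 and 2.66 CPM (adjusted p = 0.150). The defining marker Cdh5 was at 0.282, 0.251 and 0.305 against 0.0231, 0.0684 and 0 CPM (adjusted p = 0.0594), and Pecam1 was at most 0.392 CPM in any library. The part of endothelial cells in the Adgrf5 result was not tested. The call was lost without WT 2, WT 3, Atxn7l3-/- 1 or Atxn7l3-/- 2 (adjusted p up to 0.104).

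With the block, 7 further receptors were called down, which are named here after their values were seen. Adgrv1, the stereocilia receptor mutated in Usher syndrome, was at 68.8, 1.45 and 8.18 CPM in WT and at 3.23, 0.114 and 0.220 CPM in Atxn7l3-/- MEFs. The groups overlapped, yet each mutant library lay below the WT library of its number (log2 fold change -4.47, adjusted p = 0.0131 with the block, and -4.45, adjusted p = 0.140 without). Adgrl4, known from developing vessels, was at 1.84, 0.307 and 2.99 CPM against 0.0692, 0.0228 and 0.220 CPM (adjusted p = 0.0196 with the block and 0.0625 without). Adgrb1, a brain angiogenesis inhibitor that binds phosphatidylserine, was at 3.49, 0.279 and 1.5 CPM against 0.208, 0.0456 and 0.0549 CPM (adjusted p = 0.0252 and 0.0620). Adgra1, Gpr149, Gpr37 and Gpr75 had adjusted p from 0.0275 to 0.0460 with the block and from 0.0550 to 0.200 without. Gpr160 was called up with the block but not in the main fit, at 0.188, 0.0558 and 0.0872 CPM against 0.692, 0.297 and 0.632 CPM (adjusted p = 0.0479 and 0.0684). It also passed with DESeq2 and in 1 fit of all 11 libraries, but not with a GC correction and the block.

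Neuronal and neural crest genes were lower in the same mutant libraries. The 5 Schwann and neural crest markers summed to 49.3, 16.7 and 106 CPM in WT and to 3.53, 7.66 and 2.5 CPM in Atxn7l3-/- MEFs (4 of 5 down), and the 6 neuronal markers to 70.6, 49.5 and 178 against 5.47, 0.776 and 30.7 CPM (2 of 4 tested down). WT library 1 and WT library 3 had the larger sums. The part of these cells in the lower levels of brain-expressed receptors such as Gpr45, Adgrl3 and Adgrb1 was not tested.

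By role, all fold changes in MEFs were below 0 for the latrophilins (4 tested, median -2.25), the A group (3 tested, -1.66), the B group (3 tested, -1.10), the G group (4 tested, -0.78) and the SREB receptors of brain, Gpr27, Gpr85 and Gpr173 (median -1.29). Of these only Adgrl3 passed in the main fit, which has no block. These groups were picked by their signs, and 42 of all 59 receptors tested were below 0. Other groups went the other way, with 1 of 3 proton-sensing receptors below 0 (median 0.07). Of the GPR genes without a named role, 7 of 16 were below 0 (median 0.29). Adgrl1, the highest latrophilin per kb, was at 178, 181 and 138 CPM in WT and at 89.4, 75.5 and 121 CPM in mutant MEFs, without overlap (log2 fold change -0.80, adjusted p = 0.0799). Adgra2 was at 123, 216 and 249 CPM in WT and at 21.6, 13.9 and 151 CPM in mutant MEFs, where library 3 fell within the WT range (-1.66, adjusted p = 0.239). Library 3 also stood apart from the other mutant libraries in Adgrl2, with 62.3 CPM against 20.4 and 6.66 CPM, and in the mesenchymal gene Pdgfrb, with 255 CPM against 23.7 and 1.83 CPM. The 10 fibroblast genes, Pdgfrb among them, did not part the libraries so when summed. Their sums were 16216.4, 18279.3 and 23013.5 CPM in mutant libraries 1 to 3, and 0 of the 10 passed. Receptors of inner membranes had a median of -0.07, and none of 8 tested passed. Of these Gpr89 was at 27.0, 24.0 and 24.6 against 35.9, 42.2 and 28.0 CPM, with each mutant library above each WT library (adjusted p = 0.176). Gpr107 was at 146, 128 and 123 against 130, 115 and 118 CPM, where the groups overlapped (adjusted p = 0.628).

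For a view of the sequence in front of receptors that rose or fell in MEFs, the 250 bases before the RefSeq start (GRCm38.p6, on the strand of the gene, 5′ to 3′) are given for 4 of them, 3 that rose and Gpr45, which fell. Capitals mark matches to motifs that were searched on both strands, namely TATAAA (the TATA box), GGGCGG (the GC box), CCAAT (the CCAAT box), TGANTCA (the AP-1 site) and TGACGTCA (the cyclic AMP element), none of which contains another. The windows are chr1:125676746-125676995 (plus strand) for Gpr39, chr17:42692285-42692534 (minus strand) for Adgrf4, chr12:72071102-72071351 (minus strand) for Gpr135 and chr1:42952622-42952871 (plus strand) for Gpr45.
Gpr39: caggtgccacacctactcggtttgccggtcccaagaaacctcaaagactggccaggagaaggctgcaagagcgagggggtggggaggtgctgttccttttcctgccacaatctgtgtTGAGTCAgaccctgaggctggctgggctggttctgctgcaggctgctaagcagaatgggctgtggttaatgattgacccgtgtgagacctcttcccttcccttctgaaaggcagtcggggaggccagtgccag
Adgrf4: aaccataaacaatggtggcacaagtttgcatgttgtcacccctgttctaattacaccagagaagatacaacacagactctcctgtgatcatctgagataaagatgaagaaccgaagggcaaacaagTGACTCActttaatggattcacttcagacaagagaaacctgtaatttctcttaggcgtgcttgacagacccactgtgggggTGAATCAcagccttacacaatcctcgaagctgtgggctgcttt
Gpr135: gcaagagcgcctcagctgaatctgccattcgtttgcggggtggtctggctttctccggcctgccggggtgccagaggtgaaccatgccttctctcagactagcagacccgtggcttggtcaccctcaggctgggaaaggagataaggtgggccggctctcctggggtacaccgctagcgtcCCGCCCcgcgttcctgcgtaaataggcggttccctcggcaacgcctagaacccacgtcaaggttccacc
Gpr45: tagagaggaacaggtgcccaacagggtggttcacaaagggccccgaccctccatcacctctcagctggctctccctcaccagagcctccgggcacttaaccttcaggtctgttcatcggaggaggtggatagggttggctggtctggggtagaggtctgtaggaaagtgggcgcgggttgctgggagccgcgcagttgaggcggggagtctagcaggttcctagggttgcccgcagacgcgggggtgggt

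The Gpr39 window held 1 AP-1 match, with its first letter 133 bases before the start, and 5 CpG. Adgrf4 held 2 AP-1 matches, 124 and 43 bases before the start, and 3 CpG. Gpr135 held 1 GC box 69 bases before the start and 17 CpG, and Gpr45 held none of the motifs and 11 CpG. A match is a run of letters and not a measured site. Among all 32851 promoters of the RefSeq table, 6.75% held an AP-1 match, 32.7% a GC box, 33.8% CCAAT, 12.4% a TATA box and 1.55% the cyclic AMP element. Among the 69 of 97 receptors with an entry the shares were 5.80%, 42.0%, 37.7%, 8.70% and 1.45%, and Gpr39 and Adgrf4 were the only ones of 50 tested in either cell type with an AP-1 match. The number of CpG ran from 0 to 36 over these 50 and from 0 to 14 over the 19 receptors tested in neither cell type. Adgra2 and Gpr143 were among the 28 receptors without an entry.

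The genotype effect differed between the cell types for 11 receptors in 1 fit of all 11 libraries. The difference, MEF log2 fold change minus mESC log2 fold change, passed as higher for 6 of 67 receptors and as lower for 5, where 6.14% and 5.27% of all 19326 genes passed. With the block 5 and 6 passed, where 3.18% and 3.96% of all genes did. This block used the numbers of the mESC libraries too, although they do not pair those libraries. Among the 46 receptors tested in each cell type alone, 21 had fold changes of the same sign in both.

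Gpr39 had the largest difference, 7.93 on the log2 scale (SE 0.67, adjusted p = 0.000291). In mESCs it had 25 and 7 counts in WT and 3, 1 and 1 counts in Atxn7l3-/- libraries, too few to be tested there, and in the fit of all libraries its mESC log2 fold change was -2.92 (adjusted p = 0.0396). Its level was thus lower in mutant than in WT mESCs, and higher in mutant than in WT MEFs. Gpr83 differed by 6.18 (adjusted p = 0.0298), with 7, 2 and 3 counts in WT and 11, 2 and 2 counts in mutant MEFs. Gpr160 differed by 3.53 (adjusted p = 0.0210), with levels below WT in mutant mESCs and above WT in mutant MEFs. Adgrf4 differed by 3.77 (adjusted p = 0.0389, and 0.146 with the block) and Gpr135 by 2.64 (adjusted p = 0.0280, and 0.0685 with the block).

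Gpr45 differed by -4.16 (adjusted p = 0.0435), and Adgrg6, at 84.3, 97.7 and 52.2 against 66.8, 49.5 and 39.7 CPM in MEFs, by -2.34 (adjusted p = 0.0491). Gpr20, a Gi-coupled orphan, had 17, 5 and 22 counts in WT MEFs and 0 in each Atxn7l3-/- MEF library, at least 3.80-fold lower against a floor of 3 counts in each library. Its effects differed by -5.86 (adjusted p = 0.0309, and 0.0653 with the block). Gpr37l1, a receptor of astrocytes proposed to bind prosaposin, had 11, 3 and 2 counts in WT MEFs and 0 in each mutant library, and differed by -5.30 (adjusted p = 0.0475, and 0.119 with the block). The lysosomal Gpr137, at 33.0, 40.4 and 35.6 against 14.3, 10.6 and 22.1 CPM in MEFs and 13.4 and 13.5 against 20.6, 15.0 and 20 CPM in mESCs, differed by -1.61 (adjusted p = 0.0355, and 0.0815 with the block). Its antisense gene Bad shares 524 exonic bases with it and was at 26.1, 50.2 and 40.1 against 17.4, 19.3 and 31.3 CPM in MEFs. In mESCs Bad was at 13.8 and 11.4 against 24.2, 15.9 and 21.1 CPM (log2 fold change 0.70, adjusted p = 0.168). The level of Bad thus moved in the same direction as Gpr137 in each cell type, and its part in the Gpr137 result was not tested. For Adgra2, which rose in mutant mESCs, the difference was -3.80 and did not pass in the main fit (adjusted p = 0.0507). It passed with the block (adjusted p = 0.0288) and under other settings such as DESeq2. Adgrb1, Adgrv1, Gpr173 and Gpr161 also passed with the block but not in the main fit. Atxn7l3-/- mESC 3 has no WT library of its number, so with the block it did not count towards the difference. In the mESC libraries that then counted, Ddx3y was high in WT and low in the mutant, so that genotype and sex-linked differences cannot be told apart. The Gpr161 difference was 0.22 without the block and 2.49 with it. When 1 library was left out at a time, Gpr39 passed in 11 of 11 fits, and Gpr160 was lost without either WT mESC library only (adjusted p up to 0.0906). The other 8 receptors named here were lost without either WT mESC library and without 4 or more further libraries (adjusted p up to 0.240).

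**Figure D3:**
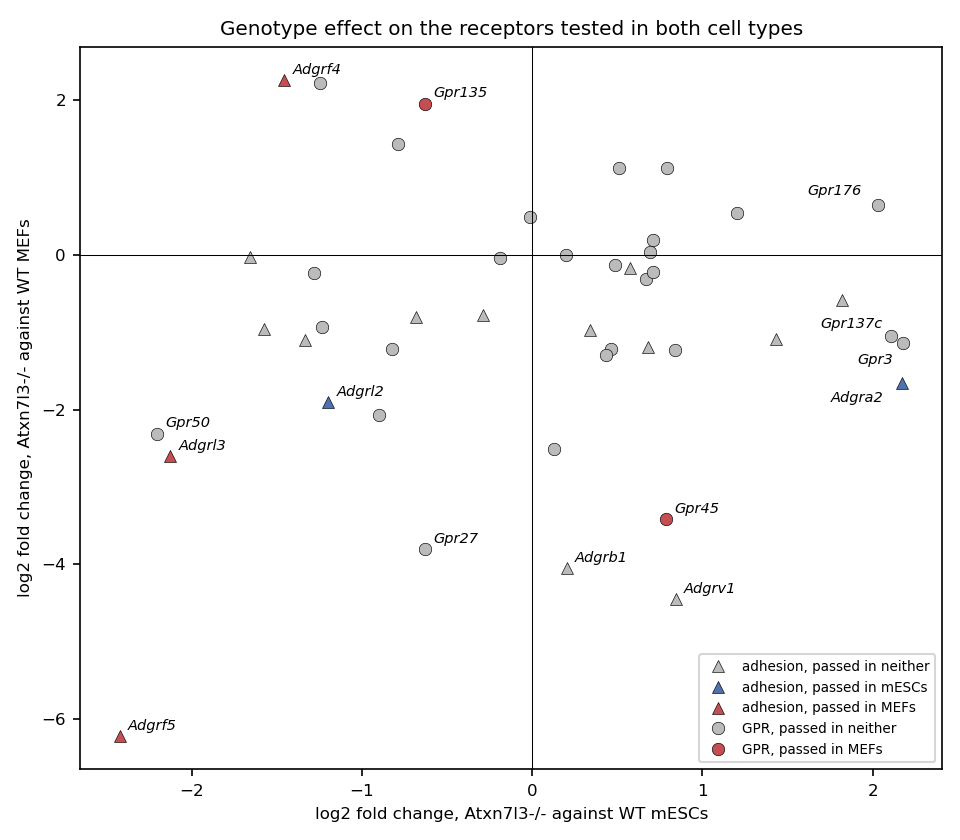
Log2 fold change of Atxn7l3-/- against WT in mESCs (horizontal) and in MEFs (vertical) for 45 receptors tested in both. Triangles are adhesion and circles GPR receptors, with colour for the cell type in which a receptor passed. Points below the horizontal zero line outnumber those above it, and no receptor shown passed in both cell types.

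Several ligands and partners of the receptors changed, among them Cd55 and Wnt7a in both cell types. In mESCs 2 of 25 tested ligands and partners rose and 4 fell, where 3.08% and 3.88% of all genes did. In MEFs 3 of 22 rose and 5 fell, where 5.01% and 4.39% of all genes did, and with the block 2 rose and 4 fell (5.50% and 8.49% of all genes). Cd55, the ligand of Adgre5, rose in both, from 52.2 and 45.9 to 101, 96.2 and 108 CPM in mESCs (adjusted p = 0.0287) and from 25.4, 14.0 and 16.7 to 43.8, 86.2 and 43.3 CPM in MEFs (adjusted p = 0.0451). Wnt7a, a ligand of the Adgra2 complex, fell in both, and was at 0.788, 0.335 and 0.545 CPM in WT and at 0 in the 3 mutant MEF libraries (adjusted p = 0.0232). Flrt3, a latrophilin partner, fell in mESCs (log2 fold change -2.98, adjusted p = 0.0301) and rose in MEFs (1.35, adjusted p = 0.0434). Tgm2, a transglutaminase that binds Adgrg1, rose in MEFs from 31.3, 31.9 and 37.5 to 151, 158 and 143 CPM (adjusted p = 0.00570). Lama2, a laminin chain of the Adgrg6 ligand, fell in MEFs from 196, 27.6 and 63.9 to 3.88, 0.251 and 2.06 CPM (adjusted p = 0.0387). Psap, which encodes prosaposin, rose in mESCs (1.21, adjusted p = 0.0317).

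Among G proteins and their regulators a few members passed, and the shares of all genes just given are the background for these lists too. In mESCs 1 of 14 G alpha genes rose (Gnal, 1.52) and 1 fell (Gnat1, -2.69), and 2 of 12 G beta and gamma genes rose (Gng2, 1.51, and Gng12, 0.89). Of 13 RGS genes, which switch G alpha off, 2 rose (Rgs3, 1.88, and Rgs12, 1.02) and 1 fell (Rgs20, -4.58). None of the 8 arrestins and receptor kinases or the 11 cyclases and phospholipases passed there. In MEFs 1 of 15 G alpha genes rose (Gnat1, 2.55) and 2 fell (Gna14, -4.71, and Gnao1, -4.38), none of 13 G beta and gamma genes and none of 7 arrestins and kinases passed, and 1 of 18 RGS genes (Rgs5, -5.44) and 1 of 13 cyclases and phospholipases (Adcy2, -5.65) fell. With the block, where 8.49% of all genes were down in MEFs, 8 of 18 RGS genes, 3 of 13 cyclases and phospholipases, 2 of 7 arrestins and kinases and 1 of 13 G beta and gamma genes were down.

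Between WT cells of the 2 types, 27 of 67 receptors were higher in MEFs, where 26.8% of all genes were, and 12 were lower, where 27.1% of all genes were. With the replicate number as a block across both cell types, 23 were higher and 10 lower, where 25.4% and 25.6% of all genes were. The labels do not pair mESC with MEF libraries. Without WT mESC 1, 17 were higher, with no share of all genes worked out for that fit. CPM in these comparisons were scaled over all 11 libraries and differ slightly from those above. Gpr176, an orphan known for setting the circadian clock, was at 0 and 0.371 CPM in WT mESCs and at 57.5, 55.3 and 127 CPM in WT MEFs (431-fold, and 216-fold without WT mESC 1, adjusted p = 8.9e-05). Gpr153, also an orphan, was at 0.973 and 1.03 against 20.3, 131 and 59.5 CPM (70.0-fold, and 39.8-fold without WT MEF 2, adjusted p = 0.000433). Adgrl4 and Gpr149 had 0 counts in both WT mESC libraries, against 0.344 to 3.34 and 0.0625 to 8.35 CPM in WT MEFs, at least 27.9-fold and 43.5-fold higher against the floor of 3 counts in each library. Without WT MEF 3 these limits were 17.3-fold and 3.76-fold, so that the one for Gpr149 rests on that library. Gpr183, Gpr37 and Gpr84 rested on 1 to 3 counts over both WT mESC libraries, so that their ratios are given with a 95% counting interval. These ratios were 335 (50.3 to 11151) for Gpr183, the oxysterol receptor of immune cells, 201 (33.3 to 7407) for the prosaposin receptor candidate Gpr37, and 132 (35.4 to 507) for Gpr84, a fatty acid receptor of myeloid cells.

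Lower in WT MEFs were Gpr160 (17.2 and 21 against 0.204, 0.0625 and 0.0976 CPM, 157-fold, adjusted p = 2.0e-05) and Gpr19 (22.5 and 22.9 against 2.67, 4.19 and 2.71 CPM, 7.12-fold, adjusted p = 0.000126). Gpr182, a scavenger of chemokines on endothelium, and the orphan Adgrf3 had 0 counts in the 3 WT MEF libraries, at least 8.19-fold and 4.29-fold lower. Gpr143 had 2 counts over WT MEFs and was 125 times higher in WT mESCs (38.0 to 1157). Gpr132, a lipid and proton receptor of lymphocytes, was 24.4-fold lower in MEFs (13.8-fold without WT mESC 1, adjusted p = 0.00130). This rests on 5 counts over the WT MEF libraries, each of which held fewer than 3, so that its level there is not told from 0. Gpr179, a class C receptor of retinal bipolar cells, was 11.3-fold lower.

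**Figure D4:**
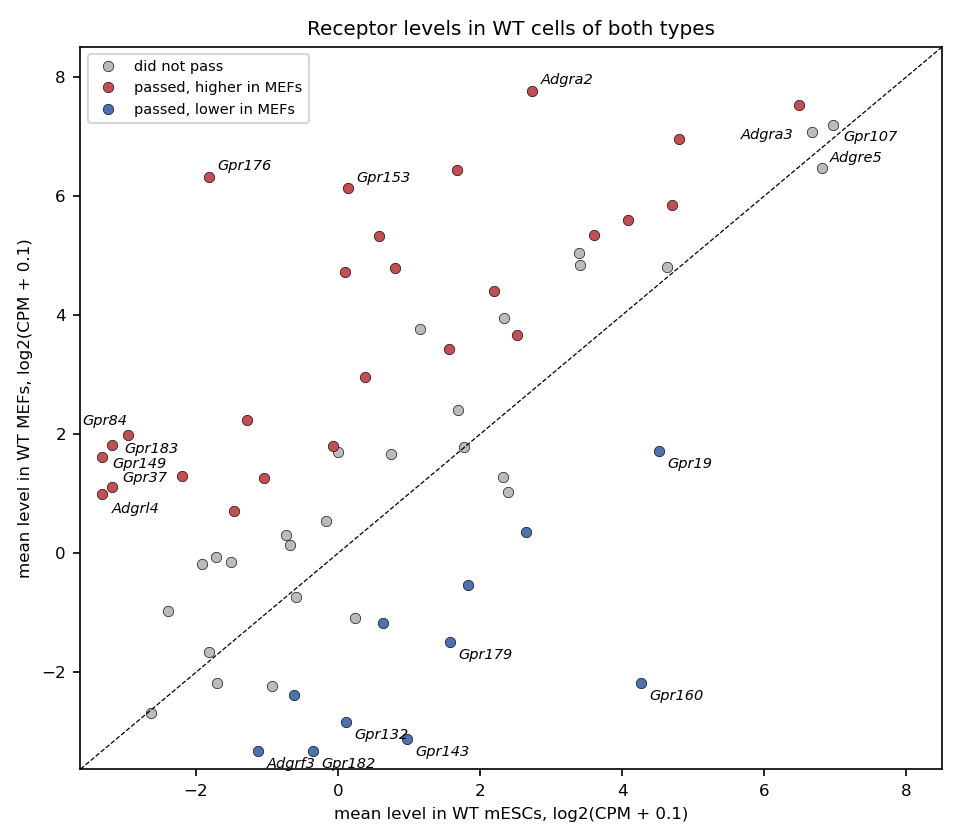
Mean level of 64 receptors in 2 WT mESC libraries (horizontal) and 3 WT MEF libraries (vertical), as log2(CPM + 0.1), with the dashed line at equal levels. Red points passed as higher in MEFs and blue points as lower. Adgra3 and Gpr107 lie near the line at the top right, and Gpr176 and Gpr153 lie far above it.

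A set of receptors best known from macrophages, named here after their values were seen, was present in MEFs of both genotypes and followed the library. Adgre1, which encodes the macrophage antigen F4/80, was at 65.8, 73.8 and 32.1 CPM in WT and at 138, 51.9 and 18.5 CPM in Atxn7l3-/- MEFs (log2 fold change 0.28, SE 0.69, adjusted p = 0.803). Gpr183 was at 3.85, 3.82 and 1.68 against 9.56, 1.92 and 1.40 CPM, and Gpr65, a proton sensor of leukocytes, at 6.18, 4.16 and 2.81 against 8.06, 4.86 and 0.906 CPM. Gpr34, a lysophosphatidylserine receptor of microglia, was at 4.36, 0.948 and 0.327 against 4.62, 0.593 and 0.330 CPM, highest in library 1 of each genotype. The macrophage markers Csf1r (167, 138 and 70.4 against 229, 63.9 and 44.6 CPM) and Cx3cr1 (81.2, 42.9 and 26.9 against 164, 47.2 and 23.4 CPM) were likewise highest in mutant library 1 and lowest in mutant library 3. This order did not hold for every marker of the list. C1qa was at 72.3, 77.1 and 40.9 against 59.0, 4.61 and 5.14 CPM, and Cd68 was lowest in WT library 3 (17.3 CPM). None of these receptors passed, and 0 of the 12 macrophage markers passed. Their summed level, 1124, 1225 and 617 CPM against 5675, 2052 and 814 CPM, was led by Lyz2.

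**Figure D5:**
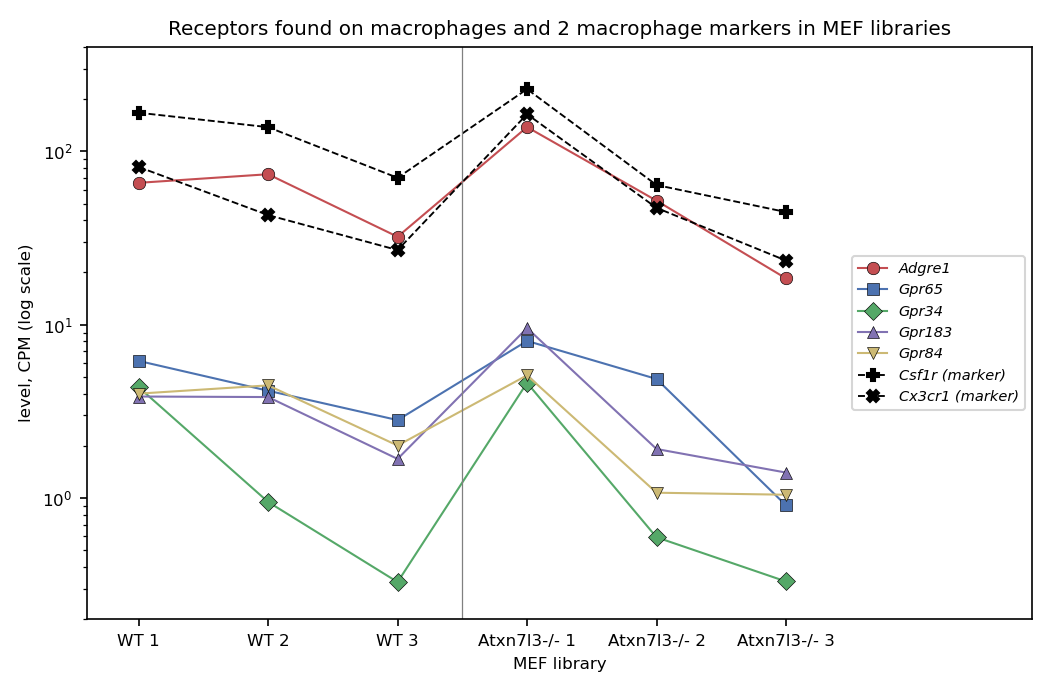
Level in CPM, on a log axis, of 5 receptors best known from macrophages (solid lines) and of the markers Csf1r and Cx3cr1 (dashed) in the 6 MEF libraries. Lines join the values of a gene across libraries. Adgre1 runs between 18.5 and 138 CPM, and mutant library 1 holds the highest value of each gene shown.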

How the data were processed

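Poly(A) RNA of 5 mESC and 6 MEF libraries was prepared with a stranded kit. The authors trimmed the reads, mapped them to mm10 and deposited raw read counts per Ensembl gene, 1 table per cell type. The submitters' processing notes name bcl2fastq 2.17.1.14, cutadapt 1.10, STAR 2.5.3a, HTSeq 0.6.1p1 and DESeq2 1.16.1, with no strand setting. The authors also deposited a normalized signal, in which the count was divided by a DESeq2 size factor and by the median transcript length in kb, and this was used only for levels between genes. The deposited fold changes and p-values of the authors were not used, and 0 sample columns were left unmapped.

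Counts were tested with edgeR 4.0.16 (TMM, filterByExpr, quasi-likelihood, Benjamini-Hochberg over all genes tested) and limma 3.58.1 under R 4.3.3, within each cell type and, for differences between cell types, in 1 fit of all 11 libraries. Total counts were 34515342 to 49602605 per library. Below 3 counts in a library a level was not told from 0, and intervals and floors cover counting error only. The fits were tested on simulated data, and tables and plots were made with Python 3.11.15, pandas 2.3.3, numpy 2.4.6, scipy 1.17.1 and matplotlib 3.10.9 (pseudocount 0.1 CPM). Alternatives were other scalings and filters, DESeq2 1.42.0, a GC correction, leaving out each library, and the replicate number as a block. The block was set within each cell type, but across both cell types for the comparison of WT cells. Deviations of same-numbered MEF libraries correlated (r = 0.473, 0.161 and 0.240), so that their numbers were taken to pair them, a hint from the data and not from the labels. In mESCs they did not (0.00777 and -0.172).

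The receptors, role groups, pathway lists and marker lists were chosen with earlier results of these data known. Named were receptors that passed the genotype test, the 6 highest per kb in each cell type, up to 10 that passed the difference between cell types, the 8 largest that passed in each direction between WT cells without overlap, the highest of each role group, and up to 4 of each pathway list that passed. Names outside this rule are marked as chosen after their values were seen, or stand beside a named member. Some receptors that met the rule are not reported by name here, and the counts include them.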

Additional observations from a re-analysis of the deposited data

Results flagged for a closer look

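The genotype effect differed between the 2 cell types by the test of the difference itself for receptors that include the following 10 (edgeR, 1 fit of all 11 libraries, adjusted p of 0.05 or less). Each value is the MEF log2 fold change minus the mESC log2 fold change. Higher in MEFs were Gpr39 (7.93), Gpr83 (6.18), Adgrf4 (3.77), Gpr160 (3.53) and Gpr135 (2.64). Lower in MEFs were Gpr20 (-5.86), Gpr37l1 (-5.30), Gpr45 (-4.16), Adgrg6 (-2.34) and Gpr137 (-1.61). For 8 of the 10 the fold changes had opposite signs in the cell types, such as -2.92 in mESCs and 5.01 in MEFs for Gpr39, and for Gpr20 and Gpr37l1 they were below 0 in both. Only Gpr39 passed in both cell types in that fit. Values such as 0.49 for Gpr83 in MEFs (adjusted p = 0.728) and 0.75 for Gpr45 in mESCs (adjusted p = 0.649) did not pass. Choosing receptors by a large difference favours opposite signs, and of the 46 receptors tested in both, 21 had the same sign. For Gpr83, Gpr20, Gpr37l1, Adgrf4, Gpr45 and, in mESCs, Gpr39 the values rest on libraries with few or 0 counts. The mESC value of Gpr39 rests on 3, 1 and 1 counts in the mutant. The replicate block changed 5 of these calls, as given above.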

How the results depend on the processing

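The called differences of the named receptors, and those called with the block, were recomputed under each setting. Of 703 values of single receptors under another setting, 532 kept their call, 141 lost it, 30 gained it and 0 changed direction. The share of all genes called was worked out only for the main fit, the replicate block and the study's selection. Counts under the other settings, here and in the next paragraph, show how calls depend on the setting. They are not results about receptors as a group. In mESCs the main counts were 2 up and 2 down. With no filter on low counts they were 5 and 8, and DESeq2 gave 8 up. With at least 10 counts in every library 1 was down, the study's selection gave 1 down, and 1 fit of all 11 libraries gave 1 up. In MEFs the main counts were 4 up and 3 down. Upper-quartile scaling gave 2 up and 5 down, no filter 2 and 7, and at least 10 counts in every library 2 up. DESeq2 gave 15 down and 1 fit of all 11 libraries 12 down. With the replicate block 10 MEF receptors were down, and with a GC correction and the block 8. In mESCs, whose numbers do not pair the libraries, the block gave 3 up and 2 down, where 4.0% and 4.06% of all genes were called. Atxn7l3-/- 3 has no WT library of its number, so with the block it did not count towards the genotype effect. That effect then rested on 2 libraries a group. The block added Adgrg6 (adjusted p = 0.0188) and Gpr161 (adjusted p = 0.0151) and lost Adgrl2 (adjusted p = 0.0754). In the libraries that then counted, the Y-linked Ddx3y was at 90.6 and 193 CPM in WT and at 3.46 and 0.882 CPM in the mutant. It passed with the block itself (adjusted p = 0.00142), so that genotype and sex-linked differences cannot be told apart in these calls.

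For the difference between cell types, at least 10 counts in every library left 1 receptor higher in MEFs, no filter left 3 lower, and DESeq2 gave 13 lower. Between WT cells, at least 10 counts in every library left 14 higher and 2 lower, since that filter removes genes absent from one of the cell types. Leaving out 1 library at a time gave 0 to 3 up and 0 to 2 down in mESCs, 1 to 3 up and 0 to 7 down in MEFs, 1 to 6 higher and 0 to 6 lower effects in MEFs, and 17 to 28 higher and 8 to 14 lower in WT MEFs. In mESCs both counts were 0 without WT 1, WT 2 or Atxn7l3-/- 1, and in MEFs 1 was up without WT 1, WT 3 or Atxn7l3-/- 1. The cause of these changes was not tested. With 2 to 3 libraries a group and most receptors at a few CPM, a receptor that did not pass is not shown to be level.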
